A study of Mus musculus with 6 samples.

Results

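The pyruvate dehydrogenase complex, its kinases and its phosphatases were followed through 10 genes, Pdk1, Pdk2, Pdk3, Pdk4, Pdp1, Pdp2, Pdha1, Pdhb, Dlat and Pdhx, of 18193 genes with a probe set naming 1 gene. They are covered by 18 probe sets, every probe set whose platform annotation names exactly one gene and that gene is among the 10. The 6 samples, 1 Affymetrix array each, are mouse quadriceps, a large muscle of the thigh. The 3 transgenic animals carried ERRγ (genotype hSkeletal Actin -ERRg transgenic) and the 3 control animals were wild-type. All were male C57/BL6 mice of 8 weeks, each array from a separate biological replicate by its title. ERRγ, encoded by Esrrg, is an orphan nuclear receptor of oxidative tissues, and the α-skeletal actin promoter drives it in skeletal muscle fibres. Its transcript was measured here at 8 weeks only. How many founder lines the animals came from is not given in the sources used here.

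Pyruvate dehydrogenase stands in the inner compartment of the mitochondrion and turns pyruvate, the end product of glycolysis, into acetyl-CoA for the tricarboxylic acid cycle. The E1 enzyme, built of α and β subunits, decarboxylates pyruvate, the E2 enzyme forms the core and passes on the acetyl group through a bound lipoate, and the E3 enzyme, held by a binding protein, re-oxidises that lipoate. Kinases phosphorylate the α subunit of E1 and switch the complex off, and phosphatases remove the phosphate and switch it on. In muscle the kinase gene Pdk4 is known for its rise in fasting and during the use of fat as fuel, and ERR proteins are known to act on it.

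The genes with the largest rises in their class were the kinase gene Pdk4, the phosphatase genes Pdp1 and Pdp2, and the E2 gene Dlat. The stretches before the start sites of those with an entry are shown here because the receptor raised in these animals binds DNA. They come from RefSeq, build GRCm38.p6, and run from 250 bases before to 50 bases after the start site, 5′ to 3′ on the gene's strand. Capitals mark CCAAT or its complement ATTGG, the CCAAT box of many promoters.
Pdk4, chr6:5496229-5496528, minus strand: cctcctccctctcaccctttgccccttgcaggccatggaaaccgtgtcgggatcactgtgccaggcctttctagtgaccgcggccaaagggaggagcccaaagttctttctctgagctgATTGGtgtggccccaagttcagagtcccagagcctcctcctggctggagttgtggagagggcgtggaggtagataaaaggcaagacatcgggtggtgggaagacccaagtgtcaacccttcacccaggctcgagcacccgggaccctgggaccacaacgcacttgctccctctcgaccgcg
Pdp2, chr8:104591222-104591521, plus strand: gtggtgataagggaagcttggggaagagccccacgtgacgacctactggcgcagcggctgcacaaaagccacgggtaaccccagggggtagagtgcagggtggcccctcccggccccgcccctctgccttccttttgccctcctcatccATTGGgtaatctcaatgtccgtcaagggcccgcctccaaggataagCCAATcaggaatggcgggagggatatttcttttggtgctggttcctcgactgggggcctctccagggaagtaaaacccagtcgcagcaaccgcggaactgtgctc
Dlat, chr9:50659731-50660030, minus strand: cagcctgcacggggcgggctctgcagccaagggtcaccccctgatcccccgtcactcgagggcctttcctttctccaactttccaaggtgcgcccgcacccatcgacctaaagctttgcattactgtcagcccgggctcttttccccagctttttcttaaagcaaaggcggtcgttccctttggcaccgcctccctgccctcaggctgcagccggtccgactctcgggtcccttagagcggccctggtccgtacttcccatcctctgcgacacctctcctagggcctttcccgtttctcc
Of the 10 genes, 9 had entries, 11 in all with the alternative starts of Pdk1 and Pdk2, and Pdp1 had none. The core half-site of nuclear receptors, AGGTCA, was searched on both strands, together with the longer ERR elements that contain it, AAGGTCA, TNAAGGTCA and TCAAGGTCA. None of these motifs was in any of the 11 windows. Of 32851 promoter windows in all, 16.3% hold AGGTCA, 4.72% AAGGTCA, 1.28% TNAAGGTCA and 0.423% TCAAGGTCA. CCAAT was in 6 of the 11 windows, against 37.4% of all windows. In Pdk4 it lay 131 bases before the start site on the opposite strand, in Pdp2 it lay 101 bases before on the opposite strand and 55 bases before on the gene's strand, and Dlat had none. These are matches of letters in a short window, and sites farther from the start were not searched.

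The values are MAS5 signals in arbitrary units, scaled by 1 factor per array so that the trimmed mean was 200 on all 6. Differences are transgenic minus wild-type on the log2(signal + 16) scale, where the added 16 understates changes of dim genes. They were tested with limma across 26995 probe sets at an adjusted p under 0.05. A gene is represented by its brightest probe set. On this scale 13.4% of 12529 genes passed, 7.65% higher and 5.75% lower in transgenic muscle. Higher genes made up 57.1% of these calls with the scaling as deposited and 30.6% after median scaling, in which all arrays were brought to the same median, which moved the median difference of all genes to -0.11, against 0.03 as deposited. Esrrg itself gave 14427, 13808 and 12697 in transgenic arrays 1 to 3, against 71.6, 61.0 and 24.1 in wild-type arrays 1 to 3 at its brightest probe set. Its other 2 tested probe sets did not pass, at 0.40 (limma adjusted p = 0.284) and 0.35 (limma adjusted p = 0.443), and which of the 3 read the transgene was not analysed here. In bulk muscle a change in the share of a cell type and a change in RNA per cell cannot be told apart. Of the muscle markers Acta1, Ckm, Mb, Tnnt3, Tnni2, Ryr1, Cacna1s and Pygm, only Mb passed at its brightest probe set, and their summed signal was 124222 to 142095 in transgenic and 103594 to 131161 in wild-type arrays. That sum includes the rise of Mb, with means of 18720 in transgenic and 6933 in wild-type muscle. The other muscle markers differed by -0.19 to 0.23 at their brightest probe sets. Dimmer probe sets of Ckm, at -0.57 (limma adjusted p = 0.0129), and of Tnni2, at -0.56 (limma adjusted p = 0.0311), passed as lower. The other tested dimmer ones, of Tnni2 at 0.06 and of Ryr1 at 0.03, did not pass.

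Of the 10 genes, 6 rose in transgenic muscle, 0 fell and 4 did not pass. The risers were Pdk4, Pdp1, Pdp2, Pdha1, Pdhb and Dlat, and the genes that did not pass were Pdk1, Pdk2, Pdk3 and Pdhx. The share of all genes that passed upward, 7.65%, stands beside the 6 of 10. The median difference was 0.39 over the 10 genes and 0.03 over the 12529 genes tested. The signals of the genotypes did not overlap for 8 of the 10 genes, against 33.3% of all tested genes. Only Pdk1 and Pdk3 overlapped. By probe set, 17 of 18 were tested, 9 rose, 0 fell and 8 did not pass, against 6.38% higher and 5.16% lower among all tested probe sets, and 13 of the 17 did not overlap, against 31% of all. The calls of Pdk4, Pdp1 and Dlat held in each of 18 alternative settings. Those of Pdp2, Pdha1 and Pdhb were each lost in several, and the count of risers was 3 without transgenic 3 or without wild-type 1.

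**Figure D1:**
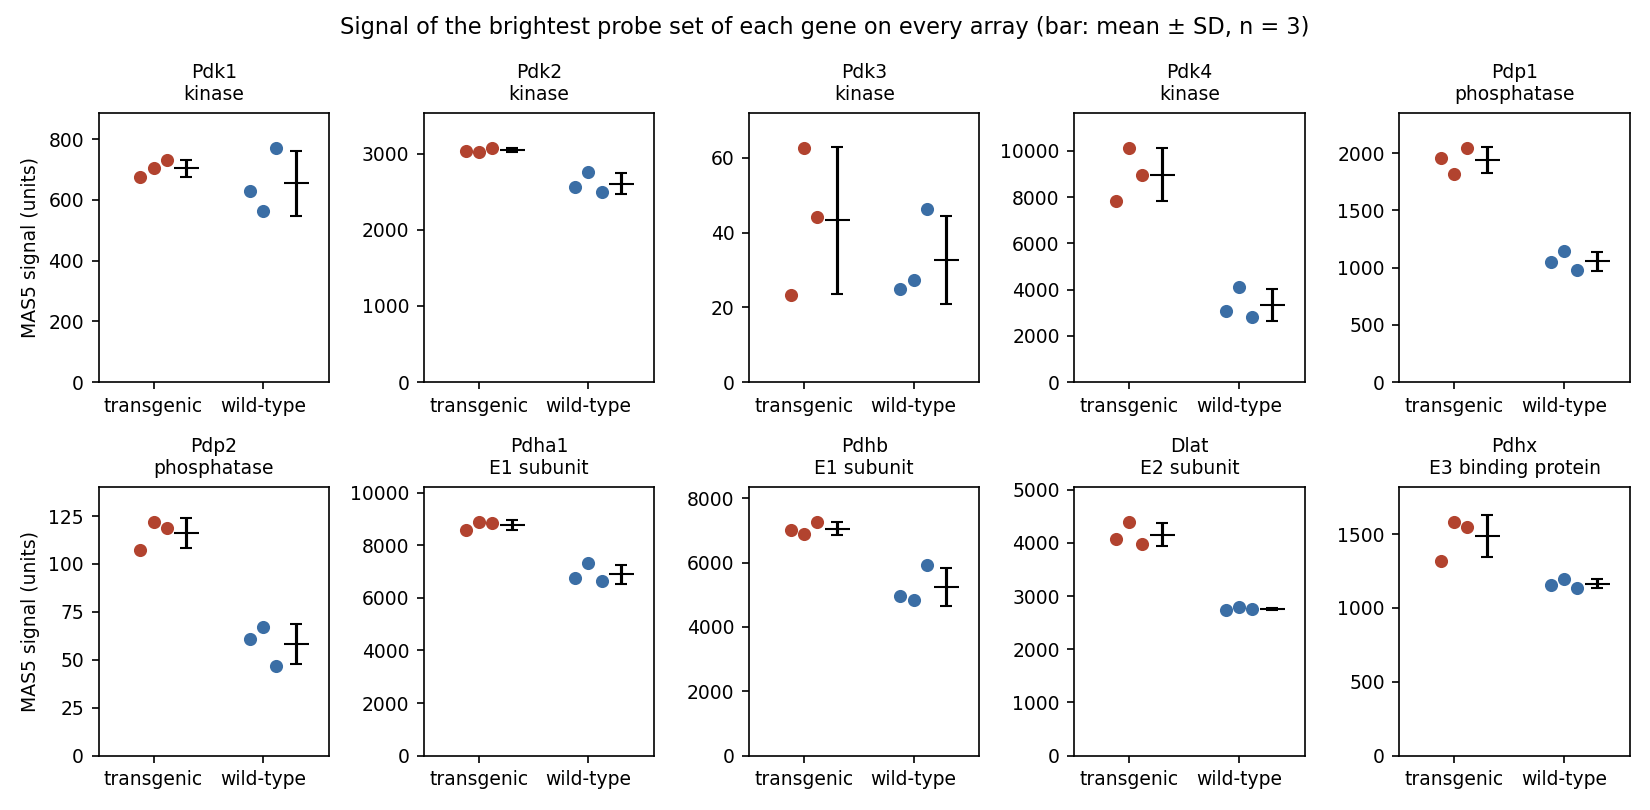
MAS5 signal (vertical axes, units, each from 0) of the brightest probe set of each gene on the 3 transgenic and the 3 wild-type arrays, as points, with the mean and SD (n = 3) beside them. Pdk4 lies between 7832 and 10125 in transgenic arrays, all above the wild-type arrays, which lie between 2818 and 4104, while Pdk1 and Pdk3 overlap.

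Among the 4 kinase genes Pdk4 rose, and Pdk1, Pdk2 and Pdk3 did not pass. Pdk4, the kinase isoform of muscle and heart that is induced when fat is burned, gave 7832, 10125 and 8945 in transgenic arrays 1 to 3, against 3073, 4104 and 2818 in wild-type arrays 1 to 3 (probe set 1417273_at, its only one). Every transgenic value stood above every wild-type value, and array 2 was the highest in both genotypes. The means were 8967 ± 1146 in transgenic and 3332 ± 681.0 in wild-type muscle (SD, n = 3 each), a ratio of 2.69. The log2 difference was 1.44 (SE 0.15, limma adjusted p = 0.000195), which placed Pdk4 at rank 92 from the top of 12529 genes. Over the 18 alternatives its difference lay between 1.28 and 1.59, with adjusted p from 9.3e-05 to 0.011. The exact two-sided permutation test of its signal gave p = 0.1, the smallest that 3 arrays against 3 allow, as for each probe set here whose genotypes do not overlap.

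Pdk2, a kinase isoform of broad distribution, gave 3039, 3017 and 3072 in transgenic arrays 1 to 3, against 2561, 2760 and 2494 in wild-type arrays 1 to 3. The transgenic values were close together and all above the wild-type values. The difference of 0.22 (95% interval 0.02 to 0.42) did not pass over all probe sets (limma adjusted p = 0.146). It did so after quantile normalization, at 0.30 (limma adjusted p = 0.0424), and was 0.07 after median scaling (limma adjusted p = 0.72).

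Pdk1, an isoform known as a target of the hypoxia-inducible factor, gave 674.9, 705.1 and 732.2 in transgenic arrays 1 to 3, against 629.3, 563.4 and 770.6 in wild-type arrays 1 to 3 at its brightest probe set. Wild-type 3 was the highest of the 6 and wild-type 2 the lowest. The difference there was 0.11 (95% interval -0.17 to 0.40, limma adjusted p = 0.635). The other tested Pdk1 probe sets gave -0.02 and -0.13 and did not pass, so the sign of the Pdk1 difference depends on the probe set, and it was -0.04 at the brightest after median scaling. The remaining Pdk1 probe set, with 3.4 to 50.5 units on the 6 arrays, fell under the limit of 37.8 on the mean signal and was not tested. Pdk3, an isoform of more restricted distribution, gave 23.3, 62.6 and 44.1 in transgenic arrays 1 to 3, against 24.8, 27.2 and 46.2 in wild-type arrays 1 to 3. Its mean lay just above that limit, the groups overlapped, and the 95% interval of -0.55 to 1.05 around the difference of 0.25 bounds it poorly.

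How unequally the kinase genes changed was read from log2 ratios within each array, which were chosen after their values were seen. The ratio of Pdk4 to Pdk2 was 1.36, 1.74 and 1.54 in transgenic arrays 1 to 3, against 0.26, 0.57 and 0.18 in wild-type arrays 1 to 3. These ratios did not overlap and differed by 1.21. The exact two-sided permutation p of 0.1 (adjusted p = 0.1 over 7 ratios) follows from the lack of overlap. The ratio of Pdk4 to Pdk1 differed by 1.32 and did not overlap either, at 3.51 to 3.81 in transgenic and 1.85 to 2.83 in wild-type arrays. Levels of different probe sets are not comparable, so only the difference between genotypes is read from a ratio. Such a ratio does not depend on the scaling factor of the array, apart from the added 16.

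Both phosphatase genes rose, Pdp1 by 0.87 and Pdp2 by 0.84 on the log2 scale, where Pdk4 rose by 1.44. Pdp1 encodes the catalytic subunit of the calcium-stimulated phosphatase of muscle mitochondria. It gave 1955, 1816 and 2044 in transgenic arrays 1 to 3, against 1049, 1144 and 979.4 in wild-type arrays 1 to 3. All transgenic values were above all wild-type values. The difference was 0.87 (SE 0.10, limma adjusted p = 0.000585), a ratio of means of 1.83, and Pdp1 ranked 427 from the top of all genes. Its other probe set, 1438201_at, gave 1780, 1275 and 1801 in transgenic arrays 1 to 3, against 1000.2, 1042 and 1000.7 in wild-type arrays 1 to 3. Transgenic 2 was the lowest transgenic array there, and the difference of 0.65 (SE 0.14, limma adjusted p = 0.0122) passed as well. That dimmer probe set did not pass without transgenic 1 (0.57, limma adjusted p = 0.0628), with adjusted p = 0.0543 after median scaling or with adjusted p = 0.0713 without the intensity trend.

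Pdp2, the other catalytic phosphatase subunit, which does not need calcium and is known for its response to insulin in fat, was dim. It gave 107.1, 122.1 and 119.0 in transgenic arrays 1 to 3, against 60.9, 67.3 and 46.7 in wild-type arrays 1 to 3. The groups stood apart, and the means of 116.1 ± 7.9 in transgenic and 58.3 ± 10.5 in wild-type muscle (SD, n = 3 each) have a ratio of 1.99. The log2 difference was 0.84 (SE 0.20, limma adjusted p = 0.0207). It did not pass without transgenic 2 (0.81, limma adjusted p = 0.0686), without transgenic 3 (0.82, 0.0651) or without wild-type 1 (0.87, 0.0534).

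The within-array ratio of Pdk4 to Pdp1 was 1.99, 2.47 and 2.12 in transgenic arrays 1 to 3, against 1.54, 1.83 and 1.51 in wild-type arrays 1 to 3 on the log2 scale. The difference of 0.57, higher for the kinase transcript, came without overlap between genotypes. That lack of overlap alone fixes the exact two-sided permutation p at 0.1 (adjusted p = 0.1), so the p adds nothing to it. This ratio, too, was chosen after its values were seen. The ratio of Pdp1 to the E1 gene Pdha1 was higher too, by 0.52, at -2.28 to -2.10 in transgenic and -2.74 to -2.66 in wild-type arrays, and that of Pdk4 to Pdha1 by 1.09.

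**Figure D2:**
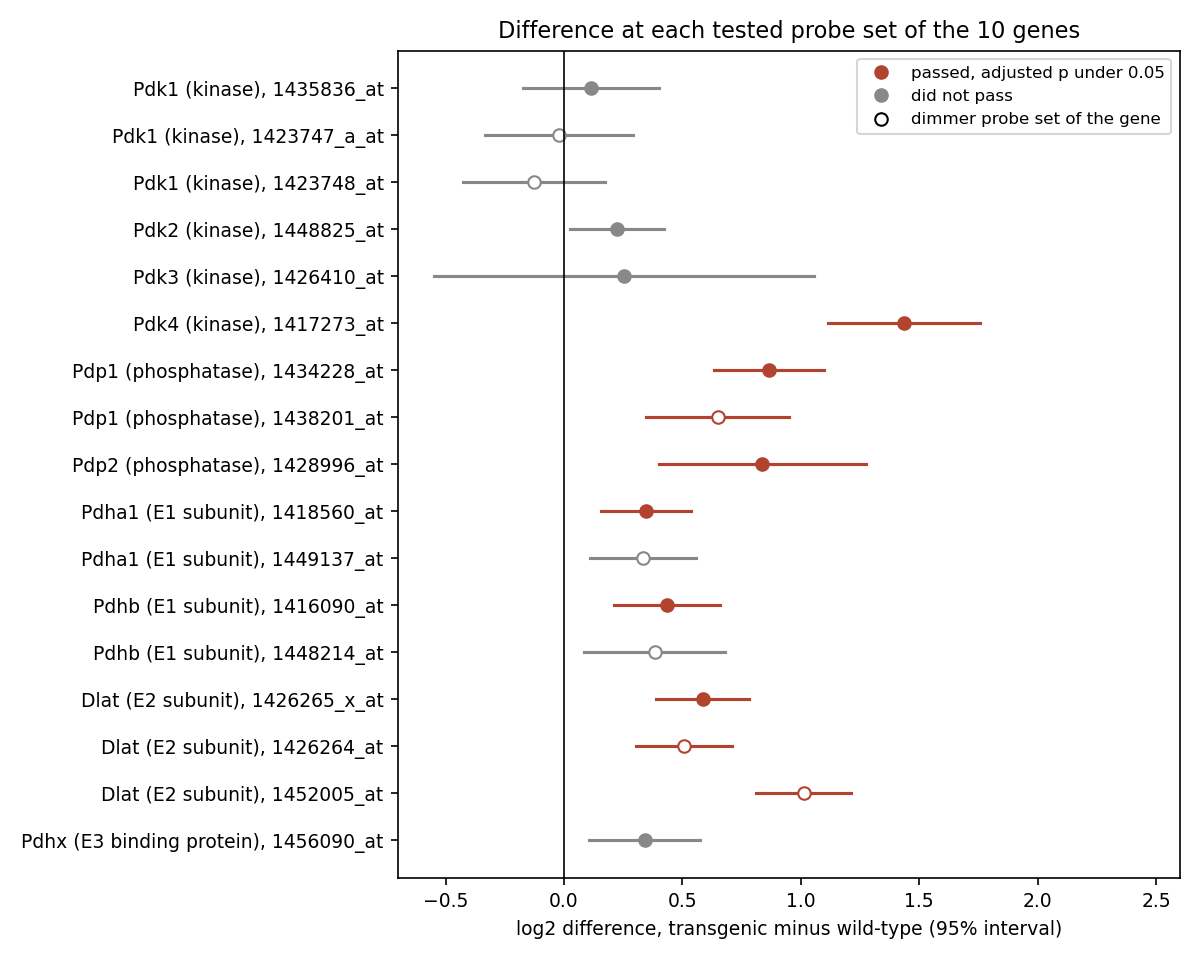
Log2 difference, transgenic minus wild-type (horizontal axis), with its 95% interval, at each of the 17 tested probe sets, open symbols for the dimmer probe sets of a gene. Pdk4 lies at 1.44, the phosphatases between 0.65 and 0.87, the subunits between 0.33 and 1.01, and the other kinases between -0.13 and 0.25; intervals are not adjusted for the number of probe sets.

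Of the subunits of the complex itself, Pdha1, Pdhb and Dlat rose and Pdhx did not pass. Pdha1 encodes the α subunit of E1, the target of the kinases. It gave 8558, 8896 and 8831 in transgenic arrays 1 to 3, against 6742, 7305 and 6621 in wild-type arrays 1 to 3. The transgenic values were higher without overlap, and the difference was 0.35 (SE 0.09, limma adjusted p = 0.0257), a ratio of means of 1.27. The dimmer Pdha1 probe set gave a like difference of 0.33 that did not pass (limma adjusted p = 0.0596). When any single array other than wild-type 3 was left out, the brighter probe set did not pass either, with differences of 0.33 to 0.39 and adjusted p from 0.0539 to 0.084.

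Pdhb, the β subunit of E1, gave 7017, 6876 and 7272 in transgenic arrays 1 to 3, against 4949, 4837 and 5918 in wild-type arrays 1 to 3. Wild-type 3 was the highest wild-type array and still below the transgenic arrays. The difference was 0.43 (SE 0.10, limma adjusted p = 0.0188), a ratio of means of 1.35. Its dimmer probe set, at 0.38, did not pass (limma adjusted p = 0.0967). The brighter one did not pass without transgenic 1 (0.44, adjusted p = 0.0694), transgenic 3 (0.41, adjusted p = 0.064), wild-type 1 (0.40, adjusted p = 0.0752) or wild-type 2 (0.38, adjusted p = 0.0904).

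Dlat, the E2 acetyltransferase, gave 4073, 4402 and 3989 in transgenic arrays 1 to 3, against 2744, 2787 and 2755 in wild-type arrays 1 to 3. The wild-type values were close together, and the difference was 0.58 (SE 0.09, limma adjusted p = 0.00206), with means of 4155 ± 218.1 in transgenic and 2762 ± 22.2 in wild-type muscle (SD, n = 3 each). All 3 Dlat probe sets rose, though not by the same amount. The dimmest, 1452005_at, gave 2865, 3041 and 2956 in transgenic arrays 1 to 3, against 1403, 1503 and 1465 in wild-type arrays 1 to 3, a difference of 1.01 (SE 0.09, limma adjusted p = 9.6e-05). The third gave 0.51 (SE 0.09, limma adjusted p = 0.00526), and it did not pass without the intensity trend (limma adjusted p = 0.0583). The log2 ratio of the dimmest to the brightest was -0.53 to -0.43 in transgenic and -0.96 to -0.88 in wild-type arrays and did not overlap. All 3 are annotated to the same accession, and where they lie in the transcript was not analysed here.

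Pdhx, the protein that holds E3 in the complex, gave 1321, 1585 and 1549 in transgenic arrays 1 to 3, against 1159, 1200 and 1138 in wild-type arrays 1 to 3 at its only probe set. The groups did not overlap, and the difference of 0.34 (95% interval 0.11 to 0.58) missed the threshold (limma adjusted p = 0.0651). It passed after quantile normalization at 0.37 (adjusted p = 0.0442), with a filter at the 60th percentile (adjusted p = 0.0492) and with genes as the mean of their probe sets (adjusted p = 0.0419). Quantile normalization in turn took away the calls of Pdha1, at 0.22 (adjusted p = 0.0833), and Pdhb, at 0.33 (adjusted p = 0.0943), so that its 6 risers are not the same genes. After median scaling the differences of the subunits were 0.19 for Pdha1, 0.28 for Pdhb, 0.43 for Dlat and 0.19 for Pdhx, and of these Dlat passed (adjusted p = 0.0168). The log2 ratio of Dlat to Pdha1 within an array was -1.14 to -1.01 in transgenic and -1.39 to -1.26 in wild-type arrays, without overlap, a difference of 0.24. The ratio of the dimmest to the brightest Dlat probe set differed by more, 0.43. An unequal change of Dlat and Pdha1 is therefore not read from their ratio.

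**Figure D3:**
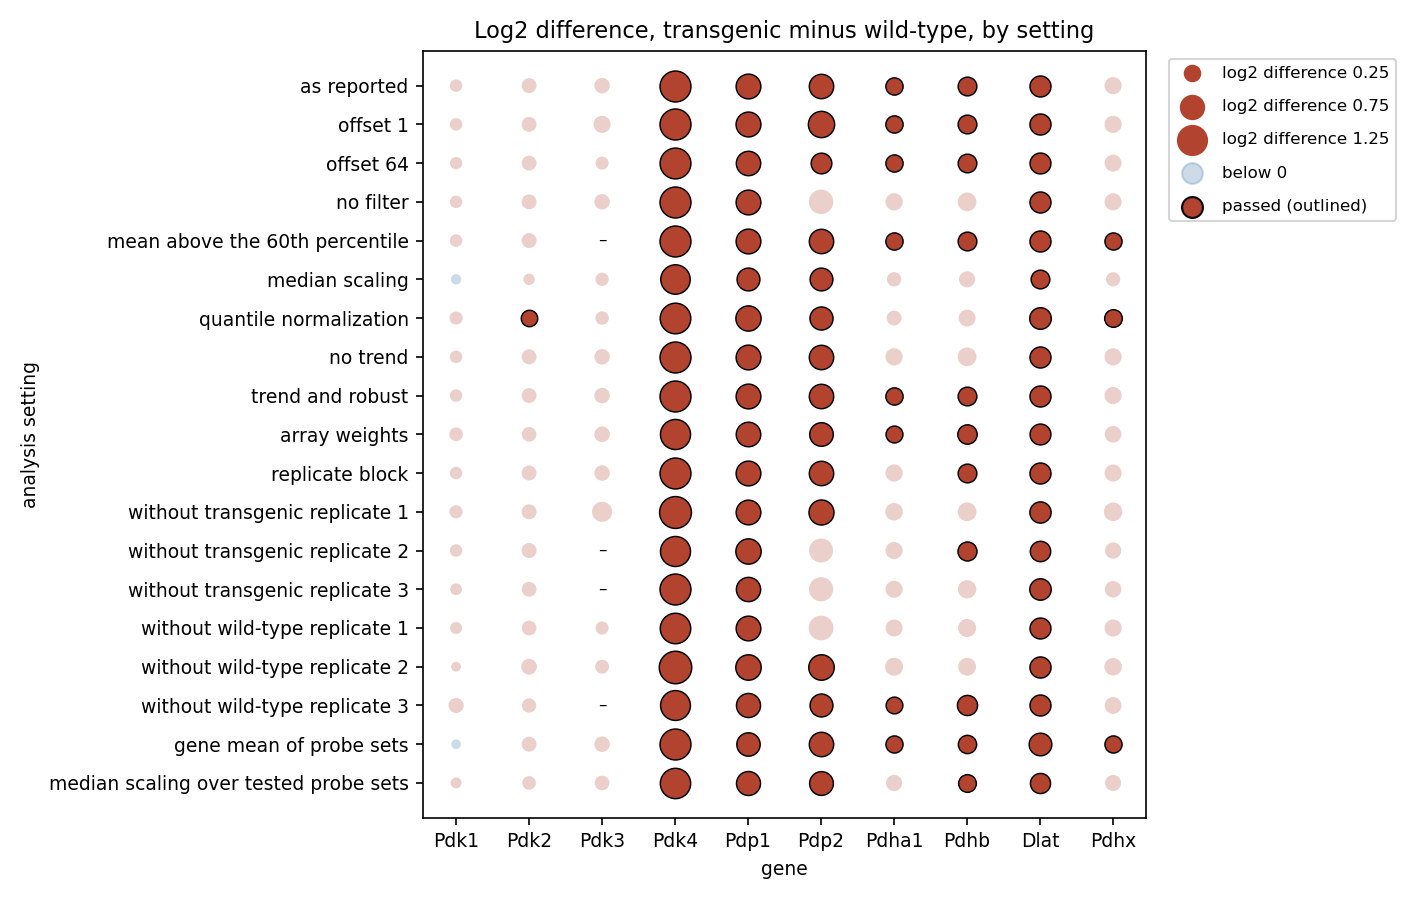
Log2 difference, transgenic minus wild-type, of each of the 10 genes (horizontal axis) under each analysis setting (vertical axis), with symbol area growing with the size of the difference and an outline where it passed the test; a dash marks a gene that was not tested. Pdk4, Pdp1 and Dlat are outlined in every line, and Pdk1 is below 0 in 2 of them.

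Markers of other cells differed between the genotypes as follows. The summed signal of 5 endothelial markers was 2857 to 3169 in transgenic and 1548 to 1675 in wild-type arrays, and 4 of the 5 rose, against 7.65% of all genes. The sum of 5 leukocyte markers was 1681 to 2203 in transgenic and 2446 to 2693 in wild-type arrays, and that of 4 fibroblast markers 19686 to 20660 in transgenic and 20880 to 25216 in wild-type arrays. The sum of 5 of 7 adipocyte markers with a probe set naming 1 gene was 12706 to 17366 in transgenic and 11501 to 26420 in wild-type arrays, the highest in wild-type 3. Fabp4 made up most of that sum, with 10579 of 13441 on transgenic 1, and its difference was 0.05. The other 4 adipocyte markers had differences of -0.92 to -0.66, and none passed. Of the 5 leukocyte markers 1 passed, which fell, and of the 4 fibroblast and 5 adipocyte markers 0 passed. Among all tested genes 7.65% were higher and 5.75% lower. The sum of 4 cardiac markers was at most 116.2 in transgenic and 165.4 in wild-type arrays. Of these cardiac markers 1 was tested, Tnnt2, with a mean signal just above the limit of 37.8, and it did not pass. The others lay under that limit. On wild-type 3 Pdk4 was the lowest of the 6 arrays, and without that array its difference was 1.32 (limma adjusted p = 0.000263). The part of the endothelial, leukocyte and fibroblast markers in the results was not tested.

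The genes that work with the complex went both ways. Of the 14 listed genes tested, 6 rose and 2 fell, 6 missed the threshold, and the median difference was 0.19, against 7.65% higher, 5.75% lower and a median of 0.03 over all tested genes. The genes that missed the threshold at their brightest probe set were Lias, Lipt1, Lipt2, Pkm, Ldha and Crat. A dimmer Crat probe set passed as higher, at 0.60 (limma adjusted p = 0.0143). Dld, the E3 enzyme that the complex shares with its sister complexes, gave 3640, 3735 and 4458 in transgenic arrays 1 to 3, against 2379, 2532 and 3367 in wild-type arrays 1 to 3. Array 3 was the highest in both genotypes, and the difference was 0.52 (SE 0.14, limma adjusted p = 0.0351). It did not pass when any single array other than wild-type 3 was left out, with differences of 0.43 to 0.58 and adjusted p from 0.0705 to 0.135. Pdpr, the regulatory subunit of the phosphatase, gave 2931, 2969 and 2733 in transgenic arrays 1 to 3, against 1981, 2161 and 1639 in wild-type arrays 1 to 3. All 4 Pdpr probe sets rose, by 0.58 to 0.89, so that Pdpr rose along with both catalytic subunits.

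Mpc1, a subunit of the carrier that takes pyruvate into the mitochondrion, rose by 0.34 (SE 0.08, limma adjusted p = 0.0259), with 9960 ± 420.4 in transgenic and 7877 ± 88.3 in wild-type muscle (SD, n = 3 each). It did not pass without transgenic 1, transgenic 2, wild-type 1 or wild-type 2 (adjusted p from 0.0688 to 0.105), nor after quantile normalization (0.21, adjusted p = 0.135). Cs, citrate synthase, which takes up the acetyl-CoA, rose by 0.45 (SE 0.10, limma adjusted p = 0.0182), though not without wild-type 2 (0.43, adjusted p = 0.0737), and its dimmest probe set, at 0.19, did not pass. Ldhb, the lactate dehydrogenase subunit of oxidative tissues, gave 1870, 2155 and 2037 in transgenic arrays 1 to 3, against 303.3, 465.7 and 545.8 in wild-type arrays 1 to 3, a difference of 2.20 (SE 0.18, limma adjusted p = 5.87e-05). Got2, the mitochondrial aspartate aminotransferase, rose by 1.03 (SE 0.11).

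Gpt2, the mitochondrial alanine aminotransferase, which interconverts pyruvate and alanine, gave 708.9, 729.5 and 944.7 in transgenic arrays 1 to 3, against 3588, 3491 and 2742 in wild-type arrays 1 to 3. It fell by 2.02 (SE 0.14, limma adjusted p = 2.23e-05), and its other 3 probe sets fell by 1.95 to 2.19. Pcx, pyruvate carboxylase, which makes oxaloacetate from pyruvate, fell by 1.30 (SE 0.24, limma adjusted p = 0.00623), to 511.8 ± 207.0 in transgenic against 1243 ± 274.7 in wild-type muscle (SD, n = 3 each). Pkm, pyruvate kinase of muscle, had the smallest p among the members of the list that did not pass, at -0.28 (limma adjusted p = 0.139), and it passed as lower without wild-type 3 at -0.39 (adjusted p = 0.0146), after median scaling at -0.43 (adjusted p = 0.0271) and after quantile normalization at -0.41 (adjusted p = 0.00675). Without wild-type 2, 5 genes of this list passed in either direction. After median scaling 3 rose (Pdpr, Ldhb and Got2) and 3 fell (Pkm, Pcx and Gpt2), and Dld at 0.37 (adjusted p = 0.16), Mpc1 at 0.18 (adjusted p = 0.208) and Cs at 0.30 (adjusted p = 0.0943) did not pass.

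**Figure D4:**
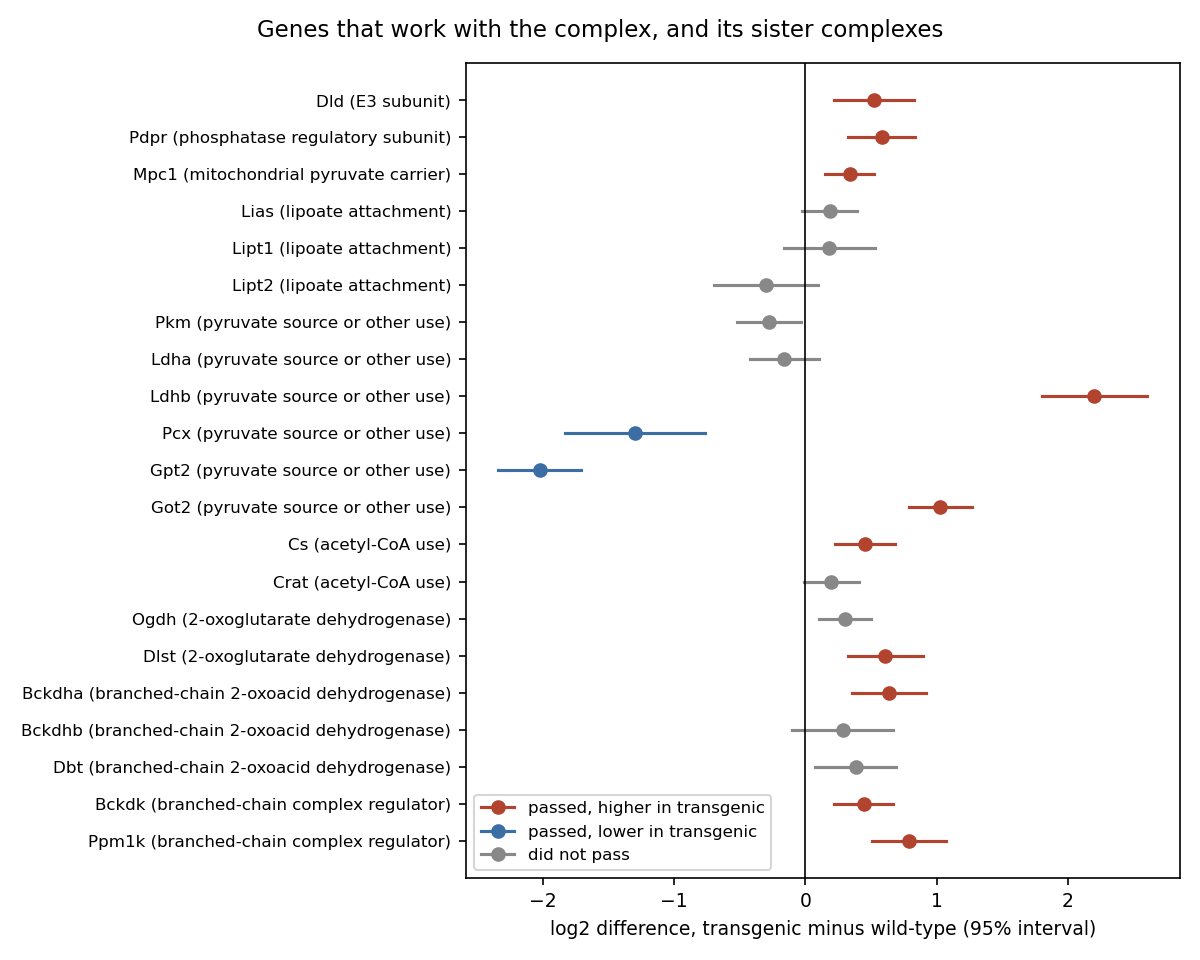
Log2 difference, transgenic minus wild-type, with 95% interval (horizontal axis) for the 14 tested genes that work with the complex and the 7 genes of its sister complexes. Ldhb at 2.20 and Gpt2 at -2.02 lie farthest from 0, and no gene of the sister complexes lies below 0.

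The sister complexes share the architecture of pyruvate dehydrogenase and act on 2-oxoglutarate and on branched-chain 2-oxoacids. Of their 7 genes, 4 rose, 0 fell and 3 (Ogdh, Bckdhb and Dbt) missed the threshold, and the median difference was 0.45, where 7.65% of all tested genes were higher and 5.75% lower. After median scaling 2 rose (Bckdha and Ppm1k), Dlst at 0.46 (adjusted p = 0.0772) and Bckdk at 0.29 (adjusted p = 0.125) being lost, and after quantile normalization 5 did, Ogdh at 0.30 (adjusted p = 0.0357) being added. Dlst, the E2 enzyme of the 2-oxoglutarate complex, rose by 0.61 (SE 0.13), Bckdha by 0.64 (SE 0.13), the branched-chain kinase gene Bckdk by 0.45 (SE 0.10) and the branched-chain phosphatase gene Ppm1k by 0.79 (SE 0.13). Here too a kinase gene and a phosphatase gene of the same complex both rose. Ppm1k gave 674.2, 799.4 and 642.6 in transgenic arrays 1 to 3, against 401.4, 367.2 and 434.7 in wild-type arrays 1 to 3. The dimmer tested probe sets of Dlst, Bckdk and Ppm1k did not pass, at 0.02 and 0.52 for Dlst, 0.04 for Bckdk and 0.52 for Ppm1k. Dlst did not pass without wild-type 1 (0.55, limma adjusted p = 0.0597), and Bckdk did not without transgenic 1 (0.46, 0.0563), transgenic 2 (0.39, 0.0592) or wild-type 1 (0.44, 0.0721). Ogdh, the E1 enzyme of the 2-oxoglutarate complex, did not pass at 0.30 (limma adjusted p = 0.0552).

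Of 12 regulators known to act on genes of fuel choice, among them Pdk4, 4 rose (Esrrg, Ppargc1b, Ppara and Foxo3), 1 fell (Nr3c1) and 7 did not pass, beside the 7.65% higher and 5.75% lower of all tested genes. The count of risers includes Esrrg, the gene that the transgenic animals carried, whose rise was set by the design. Ppara, a receptor for fatty acids, gave 420.2, 555.6 and 473.9 in transgenic arrays 1 to 3, against 100.4, 163.1 and 329.7 in wild-type arrays 1 to 3. It was highest in wild-type 3 among the wild-type arrays, and the difference of 1.36 (SE 0.31, limma adjusted p = 0.0185) did not pass without transgenic 2 (1.26, adjusted p = 0.0764), transgenic 3 (1.37, adjusted p = 0.0575) or wild-type 2 (1.31, adjusted p = 0.0597). Both dimmer Ppara probe sets passed as higher, at 1.24 (limma adjusted p = 0.0148) and 1.33 (limma adjusted p = 0.00327). Ppargc1b, a coactivator of ERR proteins, rose by 0.95 (SE 0.15, limma adjusted p = 0.00305). Ppargc1a, its relative, gave 731.2 ± 78.5 in transgenic and 734.4 ± 115.9 in wild-type muscle (SD, n = 3 each) and did not pass. Foxo3, a factor active in fasting, rose by 0.77 (SE 0.16, limma adjusted p = 0.0103) at its brightest probe set. The other tested one did not pass, at 0.33 (limma adjusted p = 0.373). With transgenic 1 or transgenic 2 left out that other probe set was the brighter and stood for the gene, and it did not pass there, at 0.58 (adjusted p = 0.101) and 0.19 (adjusted p = 0.688). Nr3c1, the glucocorticoid receptor, fell by 0.46 (SE 0.12, limma adjusted p = 0.0326) at its brightest probe set. It missed the threshold when any single array other than transgenic 3 was left out (adjusted p from 0.0623 to 0.109). A dimmer Nr3c1 probe set passed as lower, at -0.47 (limma adjusted p = 0.04), and the other tested ones, at -0.50 to -0.29, did not pass. Esrrb, a relative of Esrrg, came closest of the others, at 1.05 (limma adjusted p = 0.0569) at its brightest probe set, while a dimmer one passed at 1.44 (limma adjusted p = 0.0143). The brightest did pass with transgenic 3 left out, at 1.33 and an adjusted p of 0.0345, or with wild-type 1 left out, at 1.32 and 0.0368.

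The genes whose profile over the 6 arrays lay closest to that of Pdk4 were Coro6, Mb and Vdr. Closeness was the root mean square difference between log2 profiles, each centred on its mean, and it was 0.107 for Coro6, 0.108 for Mb and 0.108 for Vdr. Mb, myoglobin, the oxygen-binding protein of oxidative fibres, gave 18627, 20049 and 17484 in transgenic arrays 1 to 3, against 5884, 8860 and 6056 in wild-type arrays 1 to 3. As with Pdk4, array 2 was the highest in each genotype. Coro6, a member of the coronin family of actin-binding proteins, gave 1730, 2163 and 1927 in transgenic arrays 1 to 3, against 689.1, 754.8 and 528.6 in wild-type arrays 1 to 3. Vdr, the vitamin D receptor, was dim, at 55.6, 96.2 and 67.0 in transgenic arrays 1 to 3, against 15.5, 28.8 and 11.1 in wild-type arrays 1 to 3. These genes were picked from all tested genes for their likeness over 6 arrays, which is a description and carries no test.

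**Figure D5:**
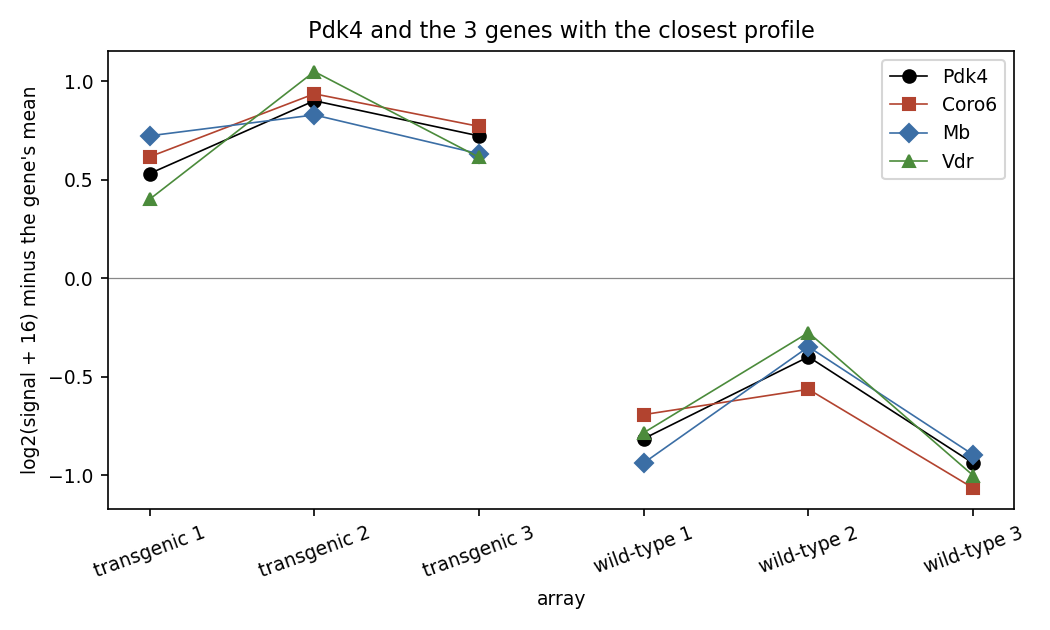
Log2(signal + 16) minus the mean of each gene over the 6 arrays (vertical axis) for Pdk4, Coro6, Mb and Vdr on each array (horizontal axis); lines join the arrays of a genotype for reading and carry no order. All 4 genes are above 0 in the transgenic arrays and below 0 in the wild-type arrays, and highest on array 2 of each genotype.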

How the data were processed

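Total RNA of 6 quadriceps muscles was labelled as biotinylated cRNA for Affymetrix arrays, per the labels' protocols. The authors deposited MAS5 signals, a linear intensity in arbitrary units, per the submitters' processing notes. No source used here gives the MAS5 version or settings. Of 45101 probe sets, 64 controls were left out, 34945 name 1 gene, 932 several and 9160 none in the platform annotation. Of those naming 1 gene, 34741 matched the gene table of GRCm38.p6 and 0 symbols changed.

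Signals were taken as log2(signal + 16). Probe sets with a mean above the 40th percentile, 37.8, were tested with limma 3.58.1 in R 4.3.3 (lmFit, eBayes with an intensity trend, two-sided, Benjamini-Hochberg, threshold 0.05), a test first tried on simulated data. Arrays within a genotype correlated at 0.935 to 0.955 (Spearman) over these, and their number, 3 per genotype, limits the precision. The 10 genes, the gene lists and the tests were chosen with earlier results of these data known. Described with values are all 10 genes, the listed genes that passed, and the one of each list with the smallest p that did not. The 3 genes closest to the member with the largest difference are described as well. Ppargc1a, as the relative of Ppargc1b, and dimmer probe sets of Crat, Ckm, Tnni2 and Ryr1 were added outside this rule. Deviations of same-numbered arrays from their group means correlated at 0.07, -0.08 and -0.02, so the numbers were not taken to pair animals. Alternatives used other constants before log2, other filters, median or quantile scaling, no or a robust trend, array weights, the mean of a gene's probe sets, the replicate number as a block, and each array left out; scaling to the median of the tested probe sets was added after seeing the data. Plots used matplotlib 3.10.9.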

Additional observations from a re-analysis of the deposited data

How the results depend on the processing

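The differences of Pdk4, Pdp1, Dlat, Pdp2, Pdha1, Pdhb, Pdhx, Pdk2 and Pdk3 kept their sign in every alternative that tested them; 0 of the 10 genes fell in any. Pdk1, which never passed, turned to -0.036 after median scaling and -0.011 as the mean of its probe sets. The count of 6 risers was 3 without the filter on low signal, where more probe sets are tested, and 3 to 6 with 1 array left out. It was 4 after median scaling, 4 without the intensity trend and 5 with the added scaling to the median of tested probe sets. The 8 genes of the pyruvate route that passed were 5 without the filter, 4 without the trend and 5 to 9 with 1 array left out. Of all probe sets, 3115 passed, against 1584 without the trend and 1710 to 3300 with 1 array left out; the cause was not tested. With the replicate number as a block, 5 of the 10 genes rose (Pdha1 adjusted p = 0.0506) and 2744 probe sets passed; 1 of 3 transgenic arrays correlated best with its own number. Pdk3 could not be tested with a filter at the 60th percentile or without transgenic 2, transgenic 3 or wild-type 3, where its mean fell under the limit. Detection calls were not used here, so whether dim genes such as Pdk3 and Pdp2 were detected on an array is not known.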
